A study of Mus musculus with 12 samples.

Results

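Gene expression in the heart ventricles of wild-type (WT) mice was compared with that in epididymal fat of WT mice, the white fat pad that lies against the epididymis. The comparison used 6 of the 12 libraries of the series, 3 WT ventricle libraries and 3 WT fat libraries, joined gene by gene across the separate table of each tissue. A gene was compared when its mean reached 1 FPKM over the 3 WT libraries of either tissue, where FPKM is the number of sequenced fragments of a gene scaled to the length of its transcript and to all mapped fragments of the library. Of the 23042 entries in the tables, 14408 met this rule: 11616 in both tissues, 849 in ventricles only and 1943 in fat only. A gene that met it in only 1 tissue could hardly come out higher in the other, which limits counts of such genes.

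The study asked how MED13, a subunit of the kinase module of the Mediator complex, acts from the heart on the metabolism of other tissues. It set MED13cTg mice, which carry an extra Med13 gene driven by a promoter active in cardiac muscle cells, against their WT littermates, and sequenced both ventricles and epididymal fat of each genotype. All mice were males on a C57BL/6 background, given as 6 weeks old in the sample labels, which were fed normal chow at will and killed late in the day. Each group held 3 libraries, and the 6 MED13cTg libraries are used here only to see whether a tissue difference also held in those mice.

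Ventricular muscle contracts continuously and draws most of its ATP from fatty acid oxidation in densely packed mitochondria. White adipocytes take up, make and store triglyceride, release fatty acids on hormonal demand and secrete adipokines such as leptin and adiponectin. The epididymis, the duct in which sperm mature, has an epithelium that secretes lipocalins, beta-defensins and protease inhibitors, and its head region borders the fat pad that was sampled.

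Values were placed on 1 scale by median-of-ratios factors, which ran only from 0.984 to 1.015, and compared as log2(FPKM + 1) with limma. A gene is called when its Benjamini-Hochberg adjusted p over all 14408 genes was under 0.05 and its log2 difference, ventricles minus fat, was at least 1 in size. This scale understates the ratio of genes with low values. The summed FPKM of the 6 libraries lay between 832020.8 and 991074.7, and the read depth behind them is unknown. Rank correlations across the compared genes were 0.957 to 0.973 among WT ventricle libraries, 0.955 to 0.971 among WT fat libraries, and 0.61 to 0.693 between the tissues. Because each tissue has its own table, tissue and table cannot be told apart.

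A large part of the transcriptome differed. In ventricles 2376 genes were called higher, 16.5% of those compared, and in fat 3261 genes were called higher, 22.6%. All 3 ventricle libraries lay above all 3 fat libraries for 4921 genes (34.2%), and all 3 fat libraries lay above all 3 ventricle libraries for 6116 genes (42.4%). The median log2 difference was 1.71 for genes called in ventricles, -1.73 for genes called in fat and -0.11 over all genes. In bulk tissue, fewer cells of a type and less RNA per cell cannot be told apart, so a level says nothing of how many cells made it.

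**Figure D1:**
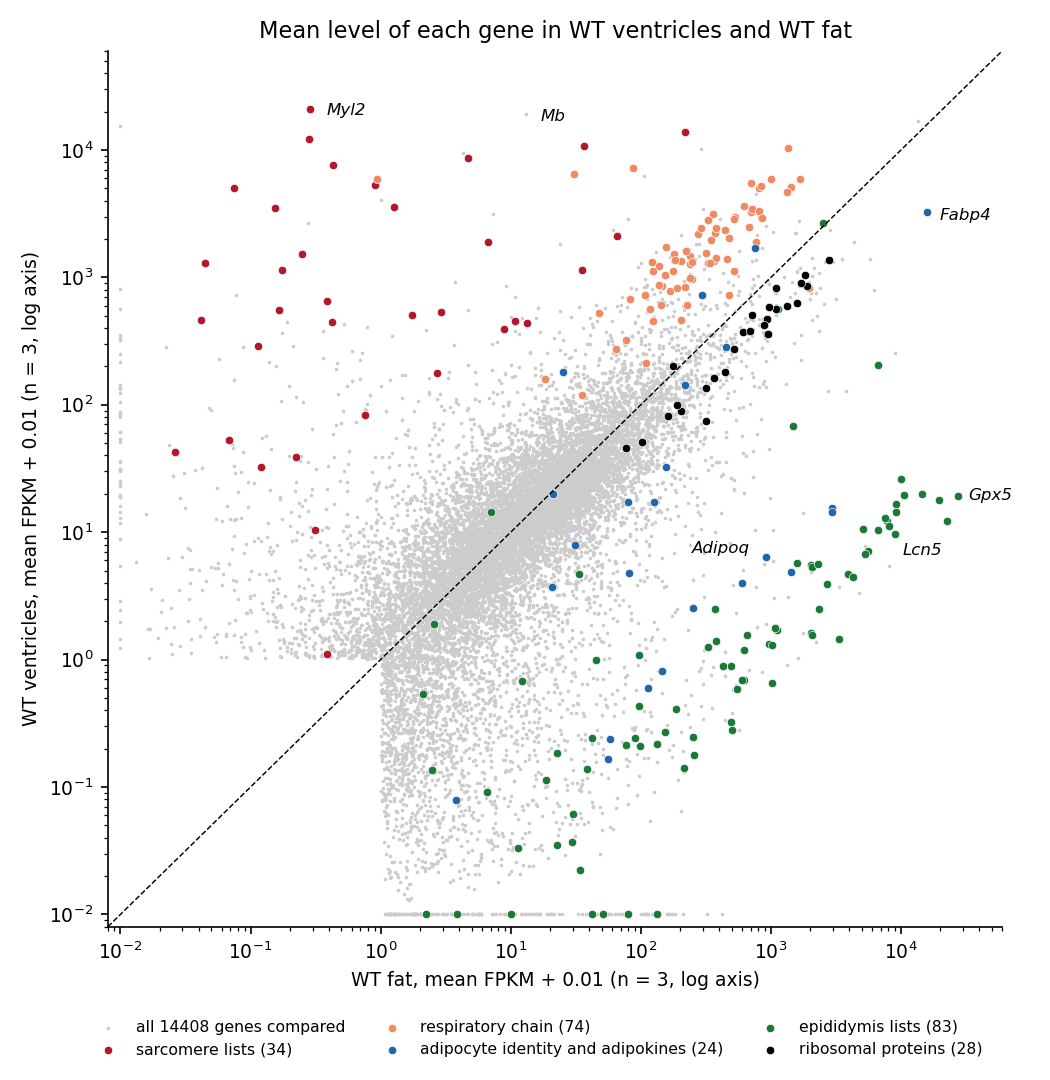
Mean FPKM over 3 WT fat libraries (x axis, log scale) against mean FPKM over 3 WT ventricle libraries (y axis, log scale) for the 14408 genes compared, each with 0.01 FPKM added for display, and the dashed line marks equal levels. Sarcomere genes sit far above the line, most of the 83 genes of the epididymis lists far below it (77 were called higher in fat), respiratory chain genes above it at high levels in both tissues, and ribosomal protein genes mostly below it.

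The defining markers set the tissues apart in every library, and they show that the fat samples were not fat alone. Myh6, the main motor protein of the adult mouse heart, was counted in an entry joined with Myh7 on mm9 chromosome 14 and read 4770, 5380 and 4980 FPKM in ventricles against 0.0882, 0.055 and 0.0514 FPKM in fat. Tnnt2, cardiac troponin T, read 8430, 11600 and 12300 FPKM in ventricles against 37.1, 28.1 and 43.9 FPKM in fat. The ventricle levels of both did not overlap those of fat, with log2 differences of 12.22 ± 0.10 (SE; adjusted p = 1.98e-08) and 8.19 ± 0.23 (adjusted p = 3.86e-07).

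Of the adipocyte markers, Adipoq (adiponectin) read 560, 1330 and 877 FPKM in fat and 7.66, 5.98 and 5.57 FPKM in ventricles. Lep (leptin) read 24.4, 66.4 and 77.2 FPKM in fat and 0.222, 0.111 and 0.138 FPKM in ventricles. Both were higher in each fat library than in any ventricle library, by 6.87 ± 0.30 (adjusted p = 2.68e-06) and 5.46 ± 0.40 (adjusted p = 2.88e-05) on the log2 scale, and both were lowest in WT fat replicate 1.

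Lcn5, a retinoic acid-binding lipocalin secreted by the epididymal epithelium, read 8750, 8330 and 9650 FPKM in fat, more than Adipoq in each library. In ventricles it read 14.5, 8.3 and 6.37 FPKM. The log2 difference was -9.75 ± 0.26 (adjusted p = 2.95e-07). The tissue labelled epididymal fat therefore carried a strong epididymal signal in all 3 WT mice, and every gene called higher in fat is higher in that mixture.

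Epididymal transcripts took up a large part of the fat libraries. Together, the 6 epididymis lists (lipocalins, cystatins, beta-defensins, other sperm maturation proteins, clear and narrow cells, basal cells) hold 87 entries, of which 83 passed the filter, 77 were called higher in fat and 0 higher in ventricles. Their summed FPKM was 222000, 209000 and 265000 in the fat libraries, which is 24.9%, 22.7% and 26.7% of all FPKM there. In ventricles the same genes summed to 4540, 3430 and 3560 FPKM, or 0.458%, 0.413% and 0.401%, and most of that was Cst3, a cystatin made in many tissues.

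Secreted proteins of the duct headed the list of levels. Among entries of a single gene, without short RNAs, Gpx5, an epididymal glutathione peroxidase that protects sperm, was the most abundant of the fat libraries. It read 25800, 23900 and 32000 FPKM there, against 29.3, 17 and 11.6 FPKM in ventricles. Lcn8 followed at 21300, 20000 and 26800 FPKM in fat and 16.3, 11.6 and 8.5 FPKM in ventricles. Spag11b, a beta-defensin-like sperm-binding protein, stood at 18800, 18500 and 21300 FPKM in fat and 26.8, 16.2 and 10.3 FPKM in ventricles. Among entries of a single protein-coding gene, the 10 with the highest mean in fat held only Fabp4 and Crip1 from outside the epididymis lists, and Fabp4 ranked below Gpx5, Lcn8 and Spag11b.

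All 8 lipocalin genes of the list were called higher in fat, with a median log2 difference of -9.45. They included Lcn2, Lcn6, Lcn9, Lcn10 and Lcn12, all on chromosome 2, and the weakest difference was that of Ptgds, prostaglandin D synthase, at -1.01 ± 0.17 (adjusted p = 0.00139) with 636, 460 and 593 FPKM in ventricles. The call of Ptgds was lost without WT ventricles replicate 2 (-0.88) and without WT fat replicate 1 (-0.99) or 3 (-0.98). Of 31 beta-defensin genes that passed the filter 29 were called, with a median of -8.16. These antimicrobial and sperm-coating peptides lie in clusters: 11 listed genes on chromosome 2 between mm9 positions 152284791 and 152460927, 14 on chromosome 8, 5 on chromosome 14 and 2 on chromosome 1. Among other sperm maturation proteins 25 of 26 were called, with a median of -7.31. The share of all genes called in fat was 22.6%. Members such as Defb10, Defb35 and Rnase13, listed at 0 in every WT ventricle library, passed the filter through fat alone. That largely fixed the direction of their calls.

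Transcripts typical of the duct wall were present as well. The 14 epithelial genes that passed the filter were all called higher in fat, with a median of -6.07, beside 22.6% of all genes. The 15 genes of that list summed to 4.05 to 5.15 FPKM in ventricles and 1330 to 1820 FPKM in fat. Most of them therefore passed the filter through fat alone, which largely fixed the direction of their calls. Epcam, a surface protein of epithelia, read 247, 206 and 241 FPKM in fat and 0.342, 0.498 and 0.246 FPKM in ventricles, and Pax8, a transcription factor of the urogenital ducts, read 74.3, 48.7 and 51.6 FPKM in fat and 0.0362, 0.0401 and 0.0398 FPKM in ventricles. The clear and narrow cells that acidify the lumen gave 7 called genes of 7, including their transcription factor Foxi1 with a mean of 30 FPKM in fat. The list of these cells summed to only 4.82 to 5.41 FPKM in ventricles, mostly Car2, so the same limit holds for this count. Basal cell genes gave 4 of 5, with Krt5 and Krt14 at means of 34 and 38.8 FPKM in fat.

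Transcripts of male germ cells were present at lower levels. Of 10 genes 8 were called higher in fat, with a median of -2.71, beside 22.6% of all genes. A member under 1 FPKM in ventricles passed the filter through fat alone, which largely fixed the direction of its call. The protamine genes Prm1 and Prm2, whose products pack sperm DNA, read 52.2, 61.5 and 62.2 FPKM and 64.9, 60.7 and 128 FPKM in the fat libraries, and their ventricle means were 3.65 and 2.06 FPKM. The summed level of the list was 222 to 313 FPKM in WT fat and 19 to 26.5 FPKM in WT ventricles.

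Not all epididymal genes were steady among the 3 WT fat libraries. Of the 77 called genes 63 differed by less than 2-fold between the highest and the lowest fat library, with a median ratio of 1.35. At the other end, 10 genes differed by at least 5-fold, all 10 were highest in WT fat replicate 1, and 9 of them were lowest in WT fat replicate 2. Crisp1, a cysteine-rich protein that coats sperm, read 1710, 62.5 and 193 FPKM, and the protease inhibitor gene Spint4 read 966, 2.17 and 504 FPKM. The call of Spint4 was lost when any library but WT fat replicate 2 was left out. Defb22, a sperm-coating defensin that was not called, read 268, 0.215 and 1.1 FPKM. Over all compared genes 38.5% were highest in WT fat replicate 1.

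The start sites of genes with the strongest differences were read as well. RefSeq (GRCm38.p6) promoters were at hand for 57 of the 82 epididymal genes with a symbol of their own and for 25 of the 33 sarcomere genes. The 100 bases before the annotated start are printed below for some of the 12 strongest genes in each direction. They are shown because the 4 letters TATA were found at a higher share of sarcomere and epididymal promoters than of all promoters, and capitals mark those letters where they begin 20 to 40 bases before the start on the gene's strand, the only strand searched. The epididymal lipocalins are given first, with Lcn8 at chr2:25653018-25653117, Lcn6 at chr2:25676686-25676785 and Lcn5 at chr2:25657852-25657951, all on the plus strand.
Lcn8: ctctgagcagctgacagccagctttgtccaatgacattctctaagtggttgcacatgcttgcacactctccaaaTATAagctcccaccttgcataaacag
Lcn6: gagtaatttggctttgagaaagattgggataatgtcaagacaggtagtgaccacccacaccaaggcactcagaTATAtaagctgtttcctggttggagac
Lcn5: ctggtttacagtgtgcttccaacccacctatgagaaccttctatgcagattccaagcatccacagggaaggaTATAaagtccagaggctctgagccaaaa

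The promoters at hand that are not printed mostly lacked the letters in that window: Actc1, Ckmt2, Pln, Fabp3, Wfdc10 and Slc38a5 lacked them, and Ly6g5c held them. The ventricular genes Tnnc1 (chr14:31208212-31208311, plus strand) and Myl3 (chr9:110763578-110763677, plus strand) hold the letters at a like distance. Gpx5 (chr13:21292687-21292786, minus strand) and Tnni3 (chr7:4522529-4522628, minus strand) are printed as genes of strong contrast without them in that window.
Tnnc1: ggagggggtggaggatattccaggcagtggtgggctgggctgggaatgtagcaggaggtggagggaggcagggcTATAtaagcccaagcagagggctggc
Myl3: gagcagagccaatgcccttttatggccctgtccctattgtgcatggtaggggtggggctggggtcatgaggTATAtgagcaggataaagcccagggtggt
Gpx5: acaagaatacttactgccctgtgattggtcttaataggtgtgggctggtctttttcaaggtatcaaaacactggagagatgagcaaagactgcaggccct
Tnni3: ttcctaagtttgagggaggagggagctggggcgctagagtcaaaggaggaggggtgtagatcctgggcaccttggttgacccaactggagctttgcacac

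Across promoters, TATA in that window was found in 22.9% of the 35 of sarcomere genes, 13.6% of the 59 of the epididymis lists and 18.2% of the 22 of the adipocyte list. It was found in 3.4% of the promoters of all compared genes, 3.03% of those of respiratory chain genes, 4.24% and 5.2% of those of genes called in ventricles and in fat, and 5.49% of all promoters in the RefSeq table. With the longer motif TATAAA, whose matches are also TATA matches, in the same window the shares were 0% for sarcomere genes, 8.47% for the epididymis lists, 9.09% for the adipocyte list and 1.32% for all compared genes. A ratio of observed to expected CpG over 0.6 was seen in 17.1% of sarcomere, 3.39% of epididymal and 31.8% of adipocyte promoters, against 84.8% of respiratory chain promoters and 64.1% of all compared. These shares describe letters in a window, and genes of a cluster share ancestry and are not independent.

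The contractile apparatus gave the strongest differences in ventricles. The thick filament, thin filament and Z-disc lists hold 34 entries, and 33 were called higher in ventricles and 0 in fat. The share of all genes called in ventricles was 16.5%. Members such as Myl2, Myl3 and Actc1 passed the filter through ventricles alone, which largely fixed the direction of their calls. Their summed FPKM was 103000, 102000 and 112000 in ventricles, 10.4%, 12.2% and 12.7% of all FPKM, against 389, 418 and 436 in fat, 0.0437% to 0.0455%. Median log2 differences were 8.90 for the thick filament, 8.19 for the thin filament and 6.26 for the Z-disc, beside -0.11 for all genes.

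Myl2, the ventricular regulatory myosin light chain, lies on mm9 chromosome 5 (122550989 to 122556863). Among entries of a single gene, without short RNAs, it was the most abundant in ventricles and had the largest log2 difference. It read 21200, 19200 and 22700 FPKM there, and in fat it was listed at 0, 0.527 and 0.295 FPKM. The essential light chain Myl3 read 10600, 12100 and 13500 FPKM against 0.143, 0.521 and 0.142 FPKM, and cardiac actin, Actc1, read 8180, 6590 and 8080 FPKM against 0.176, 0.838 and 0.249 FPKM. Tnnc1 and Tnni3, the calcium-binding and inhibitory troponins, had ventricle means of 5310 and 8570 FPKM and fat means of 0.89 and 4.69 FPKM.

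Some sarcomere genes were less tissue-bound than others. Tpm1, a tropomyosin also made in smooth muscle and other cells, read 211, 216 and 230 FPKM in fat and 11500, 14600 and 15700 FPKM in ventricles. Desmin (Des), an intermediate filament of all muscle types, had a fat mean of 35.2 FPKM and a ventricle mean of 1150 FPKM. Myom3, an M-band protein of other muscle types, was the member that was not called, at 0.759, 1.2 and 1.33 FPKM in ventricles and 0.221, 0.555 and 0.354 FPKM in fat, though it was called under quantile normalization (1.04) and with a pseudocount of 0.1 (1.37).

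Calcium cycling genes followed, with 15 of 16 called higher in ventricles and a median of 4.91, beside 16.5% of all genes called there. Pln, phospholamban, read 3620, 3910 and 4500 FPKM in ventricles against 0.922, 1.02 and 1.03 FPKM in fat, and Ryr2, the calcium release channel, read 466, 473 and 365 FPKM against 0.492, 0.562 and 0.488 FPKM. Atp2a2, the calcium pump of the sarcoplasmic reticulum that phospholamban restrains, was also plentiful in fat, with 111, 95.1 and 110 FPKM there and 8800, 5000 and 4890 FPKM in ventricles. The member that went the other way was Fkbp1b, a small protein that binds the release channel, at 14.6, 9.26 and 11.5 FPKM in fat against 1.43, 1.09 and 1.74 FPKM in ventricles (log2 difference -2.38 ± 0.19, adjusted p = 3.97e-05).

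Ion channels and junction proteins were called in ventricles for 16 of 21 genes, with a median of 2.68, beside 16.5% of all genes. Kcnip2, a potassium channel partner, read 98.3, 175 and 185 FPKM in ventricles and 1.02, 0.295 and 0.46 FPKM in fat. The gap junction gene Gja1 was level in the tissues, at 118, 132 and 121 FPKM in ventricles and 130, 116 and 123 FPKM in fat, with overlapping ranges.

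Cardiac transcription factors were called higher in ventricles for 15 of the 16 genes that passed the filter, with a median of 3.37. The share of all genes called there was 16.5%. Members such as Nkx2-5, Gata4 and Tbx20 passed the filter through ventricles alone, which largely fixed the direction of their calls. Nkx2-5, required for heart formation, read 53.6, 52.6 and 46.2 FPKM in ventricles and was listed at 0 in all 3 fat libraries. Gata4 read 25.9, 31.5 and 34 FPKM against 0.0687, 0.0145 and 0 FPKM, and Tbx20 read 17.6, 19.6 and 18.6 FPKM against 0.0211, 0.00725 and 0.0271 FPKM. Hey2 was not called, with means of 3.56 FPKM in ventricles and 2.74 FPKM in fat.

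Atrial genes were checked because the samples are labelled ventricles. Nppa, the atrial natriuretic peptide gene, read 564, 408 and 368 FPKM in ventricles, the atrial myosin light chains Myl4 and Myl7 had ventricle means of 63.6 and 38.9 FPKM, and Bmp10 was listed at 0 in all 6 libraries. Myl4, Myl7, Nppa and Sln were highest in WT ventricles replicate 1, whereas Kcnj3 was lowest there. Of the 7 atrial genes that passed the filter 6 were highest in that library, beside 7220 of all 14408 compared genes, and the part of atrial tissue in these levels was not tested. Nppb, the ventricular natriuretic peptide gene, read 205, 130 and 94.7 FPKM in ventricles and was listed at 0 in each fat library, while Npr3, the receptor that clears natriuretic peptides, was higher in fat with 15.1, 35.7 and 40.6 FPKM against 10.3, 8.21 and 7.59 FPKM (log2 difference -1.58 ± 0.35, adjusted p = 0.00558).

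Mitochondrial energy genes formed the broadest ventricular programme. All 22 genes of the Krebs cycle and the pyruvate dehydrogenase complex were called higher in ventricles, with a median of 2.79. The counts of this paragraph stand beside 16.5% of all genes called in ventricles and 22.6% in fat. Of 74 respiratory chain genes 71 were called in ventricles and 1 in fat, with a median of 2.46, and their summed level took 17.1% to 19.4% of all FPKM in ventricles and 3.11% to 3.5% in fat. That list does not hold every subunit form: Cox6a1 and Cox8a were both called in fat, so at least 1 of them is not on it. Of 23 fatty acid oxidation genes 20 were called in ventricles and 0 in fat, with a median of 2.41. Unlike sarcomere genes, most of these were also abundant in fat.

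Among Krebs cycle genes Idh2, the mitochondrial NADP-linked isocitrate dehydrogenase, read 1680, 1530 and 1570 FPKM in ventricles and 119, 130 and 141 FPKM in fat. Cs, citrate synthase, read 605, 701 and 778 FPKM against 70.1, 106 and 78 FPKM. Suclg2 showed the smallest log2 difference of the list, 1.73 ± 0.12 (adjusted p = 2.34e-05), and its values still did not overlap, at 117, 111 and 133 FPKM in ventricles and 33.3, 40.5 and 34.4 FPKM in fat.

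In fatty acid oxidation, Hadhb, a subunit of the mitochondrial trifunctional protein, read 1410, 1150 and 1300 FPKM in ventricles and 72.4, 131 and 99.8 FPKM in fat, and Acadl, the long-chain acyl-CoA dehydrogenase, read 749, 825 and 897 FPKM against 54.2, 116 and 83.9 FPKM. The genes not called were Acsl1, which activates fatty acids in both tissues, the carnitine transporter gene Slc22a5, and Cpt1a. Cpt1a, the liver form of the mitochondrial gate, fell just short of a call in fat, with 30.5, 27.4 and 34 FPKM in ventricles and 65.1, 61.8 and 61.2 FPKM in fat, and was called there with the FPKM as deposited (-1.02). Acsl1 read 253, 337 and 384 FPKM in ventricles and 211, 384 and 263 FPKM in fat, with overlapping ranges.

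Several enzymes switched between members of a gene family, and FPKM, being per length, allows the members to be compared. Of 42 families examined 24 had another leading member in each tissue by mean share, and 21 held calls in both directions. Not every lead was steady. The Scd2 entry led in ventricles only through replicate 3 (8.77, 10.3 and 1630 FPKM). In fat Acss2 stood at 38.8% beside 38.1% for Acss1, and Ldha ran from 43.4% to 61.6% among libraries. Some calls were of members at low levels, such as Pklr with a mean of 1.9 FPKM in fat. Of their 131 tested members 55 were called in ventricles and 36 in fat, beside 16.5% and 22.6% of all genes. The families were chosen for known muscle and non-muscle forms, with earlier results of these data in view.

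Fatty acid binding proteins, which carry fatty acids through the cytoplasm, are an example. Fabp3, the heart form, made up 73.6% of the family in ventricles at 8890, 8930 and 10300 FPKM, and read 5.41, 3.83 and 3.58 FPKM in fat. Fabp4, the adipocyte form, made up 99.3% of the family in fat at 8450, 23400 and 15500 FPKM, and its level in ventricles was also high, at 3750, 3020 and 3070 FPKM. Fabp4 is made by capillary endothelium as well as by adipocytes, and the part of either cell type was not tested.

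Cytochrome c oxidase, the last complex of the respiratory chain, has muscle forms of 3 small subunits. Cox6a2 made up 94.2% of its pair in ventricles, at 7700, 4990 and 5150 FPKM, and was listed at 0.0965, 2.71 and 0 FPKM in fat, where Cox6a1 made up 99.9%. Cox8b made up 89.7% of its family in ventricles and Cox8a 95.5% in fat, and Cox8a was called in fat, as was Cox6a1, at 1950, 2040 and 1920 FPKM against 1010, 727 and 742 FPKM (log2 difference -1.25 ± 0.17, adjusted p = 0.000652). Cox7a1 read 7290, 5580 and 6430 FPKM in ventricles and 18.7, 39.2 and 33.8 FPKM in fat, where Cox7a2l and Cox7a2 led.

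Some glycolytic enzymes and energy buffers switched and others did not. The same member led in both tissues in aldolase (Aldoa, 99.9% and 95.7%), pyruvate kinase (Pkm, 100% and 99.1%) and hexokinase (Hk2, 56.3% and 58.4%). Eno3, the muscle enolase, read 1890, 1740 and 1820 FPKM in ventricles and made up 97.9% of its family, while Eno1 made up 75.3% in fat. The call of Eno1 in fat stood at the limit of size and was lost under quantile normalization (-0.89) and without 4 of the 6 libraries in turn. Pgam2 made up 98.3% of phosphoglycerate mutase in ventricles and Pgam1 73.3% in fat, and Pfkm made up 87.3% of phosphofructokinase in ventricles and Pfkl 65.9% in fat. Pfkl itself was level, at means of 41 FPKM in ventricles and 41.8 FPKM in fat. Cytosolic and mitochondrial muscle creatine kinase, Ckm and Ckmt2, had ventricle means of 3120 and 2670 FPKM, whereas Ckb made up 92.5% of the family in fat. Gamt, which makes creatine, was higher in fat with 373, 338 and 402 FPKM against 14, 7.37 and 8.66 FPKM.

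Enzymes that make or sense malonyl-CoA also split. Acacb, the mitochondrial acetyl-CoA carboxylase, read 96.9, 111 and 99.8 FPKM in ventricles and 17.8, 49.9 and 26.1 FPKM in fat, while Acaca, the lipogenic form, read 3.61, 4.1 and 3.23 FPKM in ventricles and 28.2, 72.4 and 48.2 FPKM in fat. Both differences passed, at 1.82 ± 0.34 (adjusted p = 0.00249) and -3.33 ± 0.31 (adjusted p = 9.29e-05). Cpt1b, the muscle gate of fatty acid entry into mitochondria, is joined with Chkb and BC090627 in 1 entry that read 637, 506 and 487 FPKM in ventricles and 28.2, 19.6 and 23.9 FPKM in fat, so its own level is uncertain.

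Translation and signalling genes gave pairs as well, though the family of Ppara and Pparg did not switch its leading member. Pparg led in both tissues, with 35.1% in ventricles, beside 34.7% for Ppara, and 82.0% in fat. Eef1a2, the elongation factor of adult muscle and neurons, read 553, 764 and 854 FPKM in ventricles and 0, 0.203 and 0 FPKM in fat, while Eef1a1 read 556, 474 and 468 FPKM against 2110, 2150 and 2560 FPKM. Ppara, the receptor that drives fatty acid oxidation genes, read 13.6, 19.1 and 18 FPKM in ventricles and 1.48, 1.3 and 1.29 FPKM in fat, and Pparg, the master factor of adipocytes, read 19.8, 18.7 and 13.1 FPKM against 50.3, 103 and 83.3 FPKM. Ppard was level, with means of 14.7 and 14.5 FPKM. Ppargc1a, a coactivator that promotes mitochondrial gene expression, read 63.3, 55.5 and 44.6 FPKM in ventricles and 1.44, 1.32 and 1.13 FPKM in fat.

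**Figure D2:**
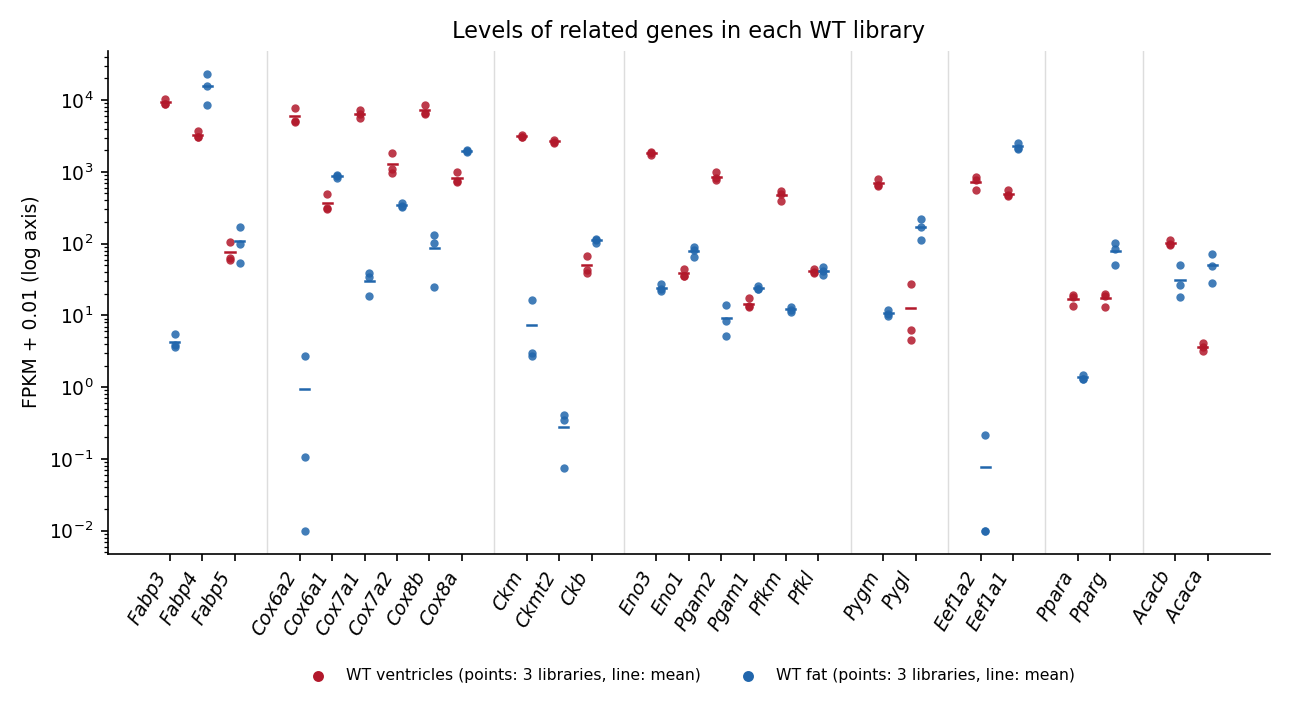
FPKM with 0.01 added for display (y axis, log scale) of related genes in the 3 WT ventricle libraries (red points) and 3 WT fat libraries (blue points), with a line at each mean and gray lines between families. The muscle form of each pair (Fabp3, Cox6a2, Cox7a1, Cox8b, Ckm, Eno3, Pgam2, Pfkm, Pygm, Eef1a2) stands higher in ventricles, while Fabp4, Cox6a1, Cox8a, Ckb, Eno1, Pygl, Eef1a1 and Acaca stand higher in fat.

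Adipocyte genes were called higher in fat for 18 of 24 members, with a median of -2.43, beside 22.6% of all genes. Beside Adipoq and Lep, Cfd (adipsin) read 2880, 3450 and 2530 FPKM in fat against 22.3, 11 and 13.4 FPKM in ventricles, Retn (resistin) 730, 1960 and 1600 FPKM against 5.44, 2.82 and 6.38 FPKM, and Car3, a carbonic anhydrase plentiful in adipocytes, 1850, 4200 and 2830 FPKM against 19.4, 11.2 and 12.2 FPKM. Plin1, which coats the lipid droplet of adipocytes, read 79, 148 and 113 FPKM in fat and 0.721, 0.368 and 0.668 FPKM in ventricles. The summed level of the list was 16400, 39200 and 27100 FPKM in fat and 6410 to 6630 FPKM in ventricles, where Fabp4, Lpl and Cd36 made up most of it.

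Members of the adipocyte list that go against it are genes that muscle uses as well. Slc2a4, the insulin-responsive glucose transporter, was higher in ventricles, with 190, 176 and 180 FPKM against 19.6, 29.3 and 26.3 FPKM (log2 difference 2.85 ± 0.15, adjusted p = 6.32e-06). Lpl, which frees fatty acids from circulating triglyceride, read 1600, 1810 and 1720 FPKM in ventricles and 369, 992 and 891 FPKM in fat, a log2 difference of 1.33 ± 0.37 (adjusted p = 0.0157). The call of Lpl was lost without WT fat replicate 1 (0.87) and when libraries were scaled to their summed FPKM without the epididymis lists (0.97). The fatty acid transporter gene Cd36 was not called, at 353, 887 and 954 FPKM in ventricles and 73.5, 523 and 287 FPKM in fat, and it was called without WT fat replicate 2 (2.21) and with the replicate number as a block (1.60).

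Fatty acid synthesis genes were mostly higher in fat, with 10 of 16 called there, 1 in ventricles and a median of -2.92. The shares of all genes were 22.6% in fat and 16.5% in ventricles. Scd1, which makes monounsaturated fatty acids, read 747, 2540 and 2020 FPKM in fat and 17.9, 11.6 and 13 FPKM in ventricles, and Acly, which supplies cytosolic acetyl-CoA, read 239, 241 and 263 FPKM against 24.8, 18.1 and 18.7 FPKM. Pck1, which feeds glycerol synthesis in fat, read 304, 967 and 568 FPKM against 6.12, 4.16 and 4.81 FPKM. Scd2 is joined with the short RNA gene Mir5114, and the entry read 8.77, 10.3 and 1630 FPKM in ventricles and 221, 131 and 192 FPKM in fat. It was not called (-1.64), and it was called higher in fat without WT ventricles replicate 3 (-4.06).

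Genes for storage and release of triglyceride went both ways. In the lipolysis and lipid droplet list 6 of 15 genes were called in fat, 4 in ventricles and 5 in neither. Of all genes, 22.6% were called in fat and 16.5% in ventricles. Cidec, a droplet fusion protein, read 313, 862 and 623 FPKM in fat and 4.58, 2.82 and 4.56 FPKM in ventricles, and Lipe, hormone-sensitive lipase, read 286, 608 and 461 FPKM against 64.7, 66.6 and 50.7 FPKM. In ventricles Fitm1, a droplet-forming protein of muscle, read 278, 181 and 214 FPKM against 1.13, 0.511 and 0.418 FPKM in fat, and Cidea read 52.9, 39.5 and 46.8 FPKM against 2.1, 5.51 and 3.78 FPKM. Pnpla2, the lipase that starts triglyceride breakdown, was not called, with 214, 283 and 252 FPKM in ventricles and 159, 444 and 254 FPKM in fat.

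Genes used as markers of brown and beige fat were mostly called higher in ventricles, beside 16.5% of all genes called there. Of the 13 genes 7 passed the filter and 6 were called there, namely Cox7a1, Cox8b, Pdk4, Ppargc1a, Cidea and the joined entry of Cpt1b, each also known in heart muscle. Ucp1, the defining protein of heat-producing adipocytes, did not pass the filter, with means of 0.386 FPKM in ventricles and 0.624 FPKM in fat.

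**Figure D3:**
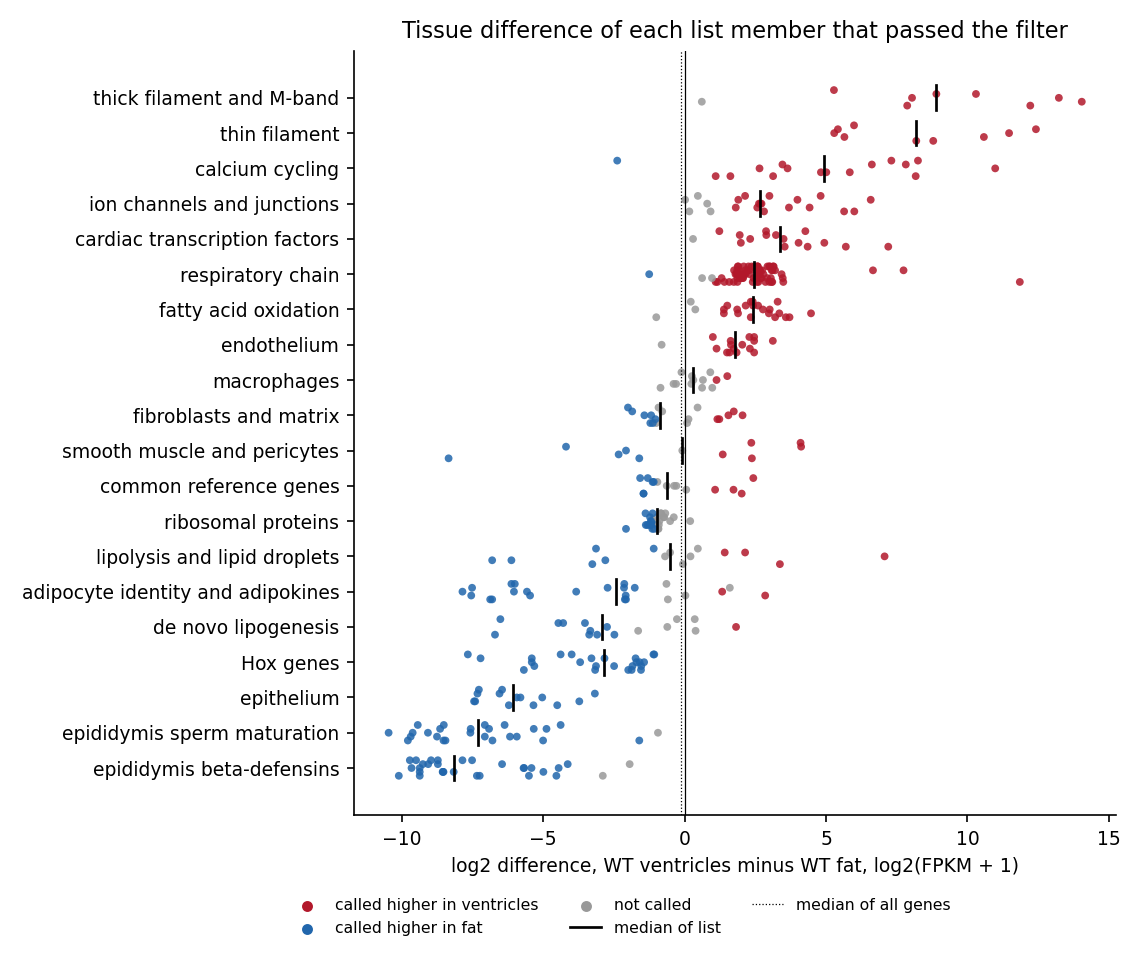
Log2 difference of each gene, WT ventricles minus WT fat on the log2(FPKM + 1) scale (x axis), for members of 20 gene lists that passed the filter (rows), where points are genes colored by call, black bars are list medians and the dotted line is the median of all genes. Sarcomere, calcium and respiratory chain lists lie to the right and epididymal, epithelial and Hox lists to the left, while smooth muscle, fibroblast and lipid droplet lists hold genes on both sides.

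Receptors for catecholamines and adipokines were looked up in both tissues. Adrb1, the main beta-adrenergic receptor gene of the heart, read 7.56, 8.54 and 7.29 FPKM in ventricles and 0.647, 0.711 and 0.831 FPKM in fat, and Adrb3, that of adipocytes, read 71.8, 47.9 and 55.6 FPKM in fat and 0.3, 0.225 and 0.162 FPKM in ventricles. Adrb3 did not follow the other adipocyte genes among the fat libraries, being highest in WT fat replicate 1. Of 8 catecholamine receptor genes that passed the filter 3 were called in each tissue. Of 7 adipokine receptor genes 1 was called in each tissue, with a median of 0.04. These counts stand beside 16.5% of all genes called in ventricles and 22.6% in fat. Adipor1 and Lepr were not called, and Cdh13, which binds adiponectin, read 27.3, 64.3 and 67.5 FPKM in ventricles against 1.49, 4.64 and 2.69 FPKM in fat.

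Of 18 nuclear receptor and coactivator genes 10 were called in ventricles and 4 in fat, the latter a share close to the 22.6% of all genes. Esrra and Rxrg, an estrogen-related receptor of mitochondrial genes and a retinoid partner receptor, had ventricle means of 93.2 and 49 FPKM and fat means of 18.1 and 2.77 FPKM. Esr1, an estrogen receptor gene, was higher in fat, with a mean of 3.42 FPKM against 0.194 FPKM in ventricles.

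Med13, the gene raised in MED13cTg hearts, was nearly level in WT tissues, at 13.1, 10.6 and 11.5 FPKM in ventricles and 10.9, 9.43 and 9.99 FPKM in fat (log2 difference 0.21 ± 0.11, adjusted p = 0.123). Of the 7 genes of the Mediator kinase module, Med12 and Cdk19 were called in ventricles and Cdk8 in fat. Of all genes, 16.5% were called in ventricles and 22.6% in fat. The calls of Med12 and Cdk8 were lost under other scalings and when single libraries were left out, and that of Cdk19 was lost with the scaling by summed FPKM without the epididymis lists (0.86). With that scaling, 0 genes of the module were called in ventricles and 1 in fat, and with quantile normalization 3 and 0.

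Genes of other cell types were present in each tissue. Their counts stand beside 16.5% of all genes called in ventricles and 22.6% in fat. Endothelial genes were called higher in ventricles for 15 of 16 members, with a median of 1.79: Pecam1 read 93.8, 96.8 and 80.6 FPKM there and 14.9, 38.4 and 26.4 FPKM in fat, and Gpihbp1, which holds lipoprotein lipase on capillaries, read 695, 650 and 548 FPKM against 46.5, 251 and 129 FPKM. Cldn5 was not called, except in fat without WT fat replicate 1. Of 13 macrophage genes 2 were called in ventricles, near the share of all genes, and 0 in fat. Their median of 0.31 turned to -0.03 with the scaling by summed FPKM without the epididymis lists. Fibroblast and matrix genes went both ways, with 7 of 18 called in fat, such as Col1a1, and 5 in ventricles, such as Dcn, whose call was lost without WT fat replicate 1 (0.94) and with the same scaling (0.88).

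Smooth muscle and pericyte genes went both ways, with 5 of 11 called in each tissue, beside 16.5% (ventricles) and 22.6% (fat) of all genes. Actg2, the actin of visceral smooth muscle, read 962, 834 and 934 FPKM in fat and 3.08, 1.41 and 1.17 FPKM in ventricles (log2 difference -8.34 ± 0.23, adjusted p = 3.6e-07), and Cnn1, Tagln, Myh11 and Acta2 were also called in fat. Rgs5, Abcc9, Kcnj8 and Pdgfrb, listed as pericyte genes, and Smtn were called in ventricles. Rgs5 read 123, 201 and 197 FPKM there against 8.54, 7.85 and 10.5 FPKM in fat. The part of pericytes and of other cells in these ventricle values was not tested. The epididymal duct has a coat of smooth muscle, and the part of that coat in the fat values was not tested.

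The 3 WT fat libraries were not alike in these makeup genes. WT fat replicate 1 was lowest for 21 of 24 adipocyte, 16 of 16 endothelial, 13 of 13 macrophage and 16 of 18 fibroblast genes, against 5390 of all 14408 genes. WT fat replicate 2 was highest for 22 of 24 adipocyte genes and lowest for all 14 epithelial genes. It was also highest for 8 of 10 skeletal muscle genes, such as Tnnt3 at 1.38, 16 and 1.55 FPKM in the fat libraries. Tnnt1 and Tnni1 were the exceptions, highest in WT fat replicate 1. Acta1, one of the 8, read 4.75, 28.9 and 8.8 FPKM in fat. Ckm, which is not on that list, was also highest in WT fat replicate 2 (2.97, 16.3 and 2.68 FPKM). The part of these genes in the other tissue differences was not tested.

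**Figure D4:**
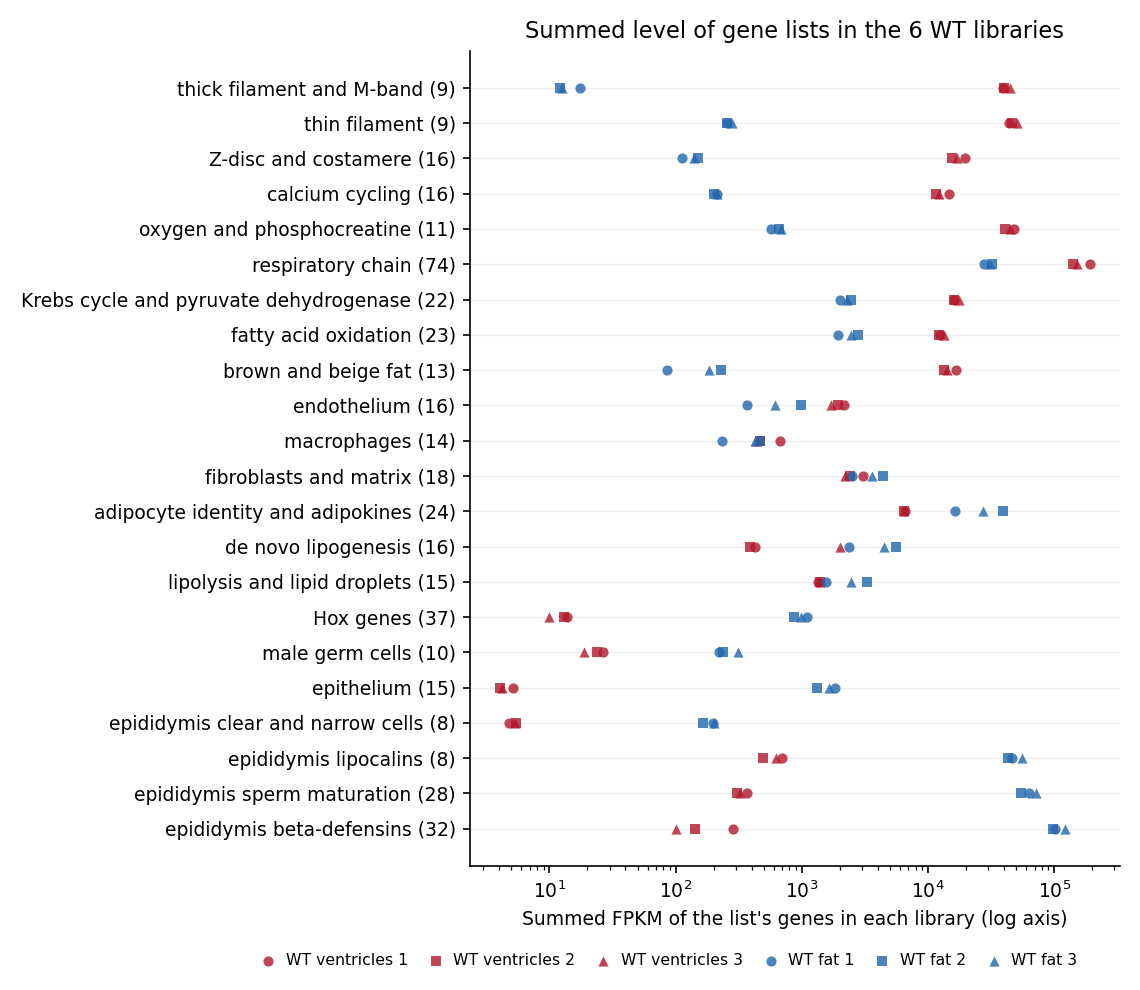
Summed FPKM of the genes of each list (x axis, log scale; number of entries in brackets) in each of the 6 WT libraries, red for ventricles and blue for fat, with a marker shape for each replicate. Sarcomere sums are far higher in ventricles, lipocalin, defensin and epithelial sums are far higher in fat, and the adipocyte and endothelial sums of WT fat replicate 1 (16400 and 366 FPKM) are the lowest of the fat libraries.

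Low levels of each tissue's most abundant genes were found in the other. In ventricles, the 34 epididymal genes whose fat mean reached 1000 FPKM stood at a median of 0.148% of their fat level, and 30 of them were under 1%. Of these 34 genes 29 were highest in WT ventricles replicate 1, whose median was 0.216%, against 0.117% and 0.0983% in the other ventricle libraries. Of all compared genes, 7220 of 14408 were highest in WT ventricles replicate 1. In fat, the 8 thick and thin filament genes whose ventricle mean reached 1000 FPKM stood at a median of 0.0111%, from 0.0013% for Myl2 to 1.57% for Tpm1. Whether these traces are expression or carry-over between samples was not tested.

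Presence in only 1 tissue was set as at least 10 FPKM in all 3 libraries of it and under 0.1 FPKM in all 3 of the other. In ventricles 35 entries met this, among them Mybpc3, cardiac myosin-binding protein C, at 1120, 1350 and 1440 FPKM, Lmod2, Nkx2-5, Gata4, Tbx20 and Irx4. In fat 70 entries met it, among them the epididymal genes Rnase13 and Lcn13, Atp6v1g3 of acidifying cells, Pax8 and Krt5. MED13cTg fat replicate 2 held little epididymal signal (0.511% of its FPKM in the epididymis lists). Of the 60 named single genes present in WT fat only, 49 were under 1 FPKM there, and the highest of the others read 54.1 FPKM. Over all 23042 entries, 12498 reached 1 FPKM in that library and 13274 to 13707 in the WT fat libraries. The source of the genes present in fat only was not tested.

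Hox genes, which mark position along the body axis, were called higher in fat for all 25 that passed the filter, with a median of -2.83. That count stands beside 22.6% of all genes. The 37 Hox entries summed to 9.89 to 13.9 FPKM in ventricles and 863 to 1100 FPKM in fat. Most of the 25 therefore passed the filter through fat alone, which largely fixed the direction of their calls. Hoxb6 read 194, 151 and 173 FPKM in fat and 0.108, 0.229 and 0.151 FPKM in ventricles, and Hoxd8 read 98.7, 83.8 and 107 FPKM against 1.11, 1.44 and 1.27 FPKM. The parts of fat and of epididymis in these levels cannot be told apart.

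Some genes often taken as constant differed. Of 15 common reference genes 4 were called in ventricles, 6 in fat and 5 in neither, beside 16.5% and 22.6% of all genes. Actb read 287, 128 and 113 FPKM in ventricles and 436, 464 and 437 FPKM in fat, whereas Polr2a, with means of 11.8 and 11.4 FPKM, was not called. Of 28 ribosomal protein genes 13 were called in fat and 0 in ventricles, with a median of -0.99, and the direction was the same under each scaling (0 in ventricles and 14, 16 or 25 in fat). Reads of ribosomal protein genes and of Gapdh can be shared with pseudogene copies, so their levels are uncertain.

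The split of calls rests in part on the scaling. With the main factors 57.8% of all calls were in fat, with quantile normalization 46.8% (2940 in ventricles and 2585 in fat), and with scaling to summed FPKM without the epididymis lists 70.3% (1805 and 4277). The median of all genes shifted by 0.17 and by -0.30 on the log2 scale under the latter settings, so small differences are to be read relative to that shift. No gene called here was called in the other direction under any setting.

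The tissue difference was also looked up in MED13cTg mice, where the fat libraries differed in makeup: the epididymis lists held 5.53%, 0.511% and 23.9% of their FPKM. Of the genes called higher in WT ventricles 93.9% kept the direction in MED13cTg means, and of those called higher in WT fat 99.4% did. The MED13cTg groups did not overlap, in the same direction, for 1757 of the 2376 ventricle calls and 1887 of the 3261 fat calls. In MED13cTg fat replicates 1, 2 and 3, 81.9%, 74.1% and 99.7% of the genes called in WT fat stood above every WT ventricle library, and 86.0%, 88.6% and 99.7% of the genes called in WT ventricles stood below every one. In a fit of all 12 libraries the tissue difference depended on genotype for 4 of 16056 genes, 0.0249%. That count rests on the libraries and the variance model, being 923 without MED13cTg fat replicate 3 and 284 with array weights.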

How the data were processed

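The authors prepared RNA from flash-frozen ventricles and epididymal fat, sequenced it, and aligned reads with TopHat to the mm9 build given in the submitters' processing notes, followed by Cufflinks at default settings. The deposited values are FPKM per library for 23042 entries in each tissue's table, 341 of which join several symbols. The number of reads is not given, so the precision from depth is unknown. Average and fold-change columns of the authors were not used, nor was 1 unnamed column of values. Deposited loci count the start from 0 and are given here from 1.

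Groups follow the sample labels, which do not say whether ventricles and fat came from the same mice, and p-values measure the spread between these libraries. The 6 WT columns were scaled together by median-of-ratios factors over 11074 genes. The filter kept entries whose WT mean reached 1 FPKM in ventricles or in fat. The test on log2(FPKM + 1) was that of limma (version 3.58.1, under R 4.3.3) with the trend option, and p-values were adjusted by the method of Benjamini and Hochberg. The procedure was tested on simulated data. An exact permutation test of 3 against 3 libraries cannot go below p = 0.1. Tables and plots were made with Python 3.11.15, numpy 2.4.6, pandas 2.3.3, scipy 1.17.1 and matplotlib 3.10.9. Promoters came from RefSeq (GRCm38.p6) and matched 9910 of 14146 compared genes with a single symbol. The 4-letter TATA search was added after the data were seen.

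The comparison and gene lists were chosen with earlier results of these data known, and 4 listed genes (Spint5, Eppin, Rhox5 and Fatp1) matched no entry. Genes were named by rule: the 5 markers, the 10 highest means in each tissue, the 12 largest called differences in each direction, up to 4 most abundant members of each list and its called members of opposite direction, members of the gene families, and 5 abundant genes near equality. The rankings by mean, by difference and near equality left out entries of short RNA genes and entries joining several symbols. Named outside this rule, as examples chosen after their values were seen, were Abcc9, Acadl, Acly, Adrb1, Bmp10, Cdk19, Cnn1, Col1a1, Crisp1, Cs, Defb22, Des, Gata4, Hey2, Irx4, Kcnj3, Kcnj8, Lcn10, Lcn12, Lcn13, Lepr, Lmod2, Myom3, Pax8, Pdgfrb, Pecam1, Polr2a, Ptgds, Retn, Rgs5, Rnase13, Rxrg, Slc22a5, Sln, Spint4, Suclg2, Tbx20 and Ucp1. Alternatives changed the scaling, pseudocount, filter, variance model, size needed for a call, replicate number as a block, and the libraries kept.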

Additional observations from a re-analysis of the deposited data

Results flagged for a closer look

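In a limma fit of all 12 libraries, 4 of 16056 genes had a tissue difference that depended on genotype by the interaction test (493 at an unadjusted p under 0.05). The count was 923 without MED13cTg fat replicate 3 and 284 with array weights. The interaction is the log2 difference between ventricles and fat in WT mice minus that in MED13cTg mice. For Med13 it was -4.08 ± 0.25 (adjusted p = 0.000101), with 263, 181 and 204 FPKM in MED13cTg ventricles and 7.84, 11 and 10.7 FPKM in MED13cTg fat, which is the gene the transgene carries. The other genes encode short RNAs. For Mir3060 it was -7.24 ± 0.59 (adjusted p = 0.000897), and this gene was listed at 0 in all MED13cTg fat libraries and at 56.8 to 122 FPKM in WT fat. For Mir196b it was -6.06 ± 0.38 (adjusted p = 0.000101), with 53.9, 108 and 50.2 FPKM in WT fat and 0 in the other 9 libraries. For Snord15b it was -4.87 ± 0.22 (adjusted p = 1.12e-05), with 19.5, 21.2 and 19.8 FPKM in WT fat, 0 in WT ventricles, and 5.34 to 9.49 FPKM in the MED13cTg libraries. FPKM of such short transcripts is uncertain. The makeup of MED13cTg fat differed between its libraries, and the part of this in the interaction was not tested.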

How the results depend on the processing

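Counts of genes called higher in either tissue stayed within 1.5 times under every scaling, pseudocount, filter and variance model tried. With adjusted p alone, 4612 genes were higher in ventricles and 5708 in fat, and with a log2 difference of at least 2, 883 and 1319. Leaving out 1 library gave 2322 to 2487 genes in ventricles and 3111 to 3412 in fat. For genes whose tissue difference depended on genotype, array weights gave 284 in place of 4, and leaving out 1 library gave 4 to 923, with 923 without MED13cTg fat replicate 3 and 4 to 7 otherwise. The cause was not tested. Deviations of same-numbered ventricle and fat libraries correlated at 0.023, 0.032 and 0.078, each the highest for its fat library. Those of different numbers correlated at -0.062 to 0.03. With 3 libraries of each tissue such values cannot show whether the number pairs mice, and the main fit did not pair them. The fit with a replicate block gave 2387 genes in ventricles and 3281 in fat. Of 351 named genes 0 called genes changed direction under any alternative. The scaling by summed FPKM without the epididymis lists changed most calls among the scalings, with 20 lost and 12 gained. Without WT fat replicate 1, 14 calls were lost and 5 gained. Read depth is unknown, and low FPKM values have no stated error.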
